A study of Mus musculus with 6 samples.

Results

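The cytosolic ribosomal proteins, the protein building blocks of the ribosomes that translate nuclear-encoded mRNA, were followed in mouse liver. Members were chosen by gene symbol alone: rows of the deposited gene table whose symbol begins with Rpl or Rps followed by a number, with at most 1 closing letter a, l or x, together with Rps3a1, Rpl36al, Rpl22l1, the stalk genes Rplp0, Rplp1 and Rplp2, and Rpsa. This gave 86 of 55491 gene rows, 53 of the large subunit and 33 of the small subunit, on 19 chromosomes. The annotation calls 83 of them protein coding and 3 of them (Rpl6l, Rpl32l and Rps4l) processed pseudogenes, copies made from a spliced mRNA. The rule uses symbols and no measured value, though it was set with earlier results of these data known. Fau and Rack1, which also encode ribosomal proteins, have other names and are described apart.

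The study asked how hepatocytes that lack CHRNA2, a subunit of the nicotinic acetylcholine receptor, respond to a regimen that injures the liver. Bulk RNA-seq was made from livers of 3 Chrna2fl/fl mice, the floxed controls, and 3 Chrna2fl/fl;AlbCre mice, the mutants. The Cre of the mutants is made under the albumin promoter, and the paper describes the loss of Chrna2 as restricted to hepatocytes. Loss in each liver cell type was not measured in these data. Both groups carried the floxed alleles and both received HFD plus CCl4: mice aged 7 to 10 weeks at the start spent 4 weeks on a high-fat diet, 60% of its calories being fat, and were injected with the hepatotoxin carbon tetrachloride at 0.5 µl per g of body weight 2 times per week over the later part of the feeding. Livers are called control a, b and c and mutant a, b and c after the letters in their labels.

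A ribosome joins a small subunit, which reads the mRNA, to a large subunit, which forms the peptide bond, and each subunit is a core of ribosomal RNA dressed with proteins present in 1 copy, apart from the acidic stalk proteins. Cells make these proteins in near-equal amounts. Most of their mRNAs begin with a C followed by an unbroken run of pyrimidines, the terminal oligopyrimidine (TOP) tract, through which mTORC1 signalling controls how strongly they are translated. A change in translation of this kind is not seen in mRNA levels, which are what was measured here.

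The tract was looked for in RefSeq promoter sequence (GRCm38.p6), as a C followed by at least 6 bases that are each C or T, from 20 bases before to 50 bases after the annotated start. Of the 86 members, 64 matched a promoter by symbol. On the strand of the gene, 51 of these 64 (79.7%) held such a tract, against 32.9% of all 27025 genes with a promoter. On the opposite strand the shares were 17.2% of the members and 37.2% of all genes. Windows of 30 bases are shown for the most abundant member of the large subunit (Rpl13a), the 2 most abundant of the small subunit (Rps12 and Rps24), Rps6, and the members of the paralogue pairs compared further on that matched a promoter, 5′ to 3′ on the strand of the gene, with the longest tract in capitals:
Rpl13a, chr7:45128722-45128751, minus strand: cgacaagaCCTCCTCCTTTCCCaggcggct
Rps12, chr10:23787180-23787209, minus strand: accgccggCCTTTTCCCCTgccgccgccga
Rps24, chr14:24490698-24490727, plus strand: ttggtcggcagtgagcggtCCTCTTTTCCT
Rps6, chr4:86857347-86857376, minus strand: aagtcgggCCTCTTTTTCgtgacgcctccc
Rpl22l1, chr3:28805503-28805532, plus strand: agcccgttCTCTTCCCacggctgcagctca
Rpl22, chr4:152325718-152325747, plus strand: tgggaaaagcaatagctggccgatcgttac
Rps27, chr3:90213629-90213658, minus strand: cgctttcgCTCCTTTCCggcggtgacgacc
Rps27l, chr9:66946066-66946095, plus strand: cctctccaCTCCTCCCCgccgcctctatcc
Rpl36a, chrX:134585673-134585702, plus strand: ggctctagCCTCTCTCTTTCCgagctgcta
Rpl36al, chr12:69184018-69184047, minus strand: tctgttcgtCCCTTTCCTgttcggcgcgtg
Rps4x, chrX:102189370-102189399, minus strand: tgggcggagcaacccaggctccagcgcgcg
In Rps6 the tract begins 1 base before the annotated start and in Rpl13a at base 3 of the transcript, while no tract was found in the searched windows of Rpl22 and Rps4x. A match describes these letters only, since the true start in these livers was not measured.

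Values are FPKM, fragment numbers scaled to transcript length and to the size of the library. In the order a, b, c, Chrna2 stood at 1.24, 1.20 and 2.64 FPKM in controls and 0.36, 0.03 and 0.32 FPKM in mutants. The groups did not overlap, in the direction of the labels, with a log2 fold change of -2.52 ± 0.64 (SE) and an adjusted p of 0.26 (limma, 13943 genes). The depth, read from the steps between low values, was 17.1 to 18 M fragments in control libraries and 9.15 to 9.33 M in mutant libraries. A separate sequencing batch for each genotype therefore cannot be told apart from the genotype. Mean fragment lengths, estimated at 274.8 to 278.4 nt in controls and 272.0 to 284.2 nt in mutants, were close. Over all tested genes the median log2 fold change stood at 0.19, so changes are also given relative to that value.

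Ribosomal protein mRNA made up a larger share of summed FPKM in mutant livers. The summed FPKM of the 53 large subunit genes was 15927, 19202 and 13889 in controls and 23644, 22522 and 20414 in mutants, or 16339 ± 2680 against 22193 ± 1640 (SD, n = 3 each), a ratio of 1.36. The 33 small subunit genes summed to 11726, 14614 and 10398 FPKM in the controls and 18143, 17071 and 15055 FPKM in the mutants, or 12246 ± 2155 against 16756 ± 1568 (SD, n = 3 each), a ratio of 1.37. In FPKM as deposited, every mutant liver lay above every control liver for both subunits. Control b was the highest control and mutant c the lowest mutant. After the median-ratio scaling described further on, the large subunit sums stayed apart. The small subunit sums then overlapped, with control b above mutant c. Together the members took 2.90 to 4.13% of all FPKM in controls and 4.35 to 5.14% in mutants. The ratio of large to small subunit sums hardly moved, at 1.34 ± 0.022 in controls and 1.33 ± 0.027 in mutants (SD, n = 3 each), so both subunits differed by a like factor. In bulk tissue a change in the mix of cells and a change in RNA per cell cannot be told apart.

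**Figure D1:**
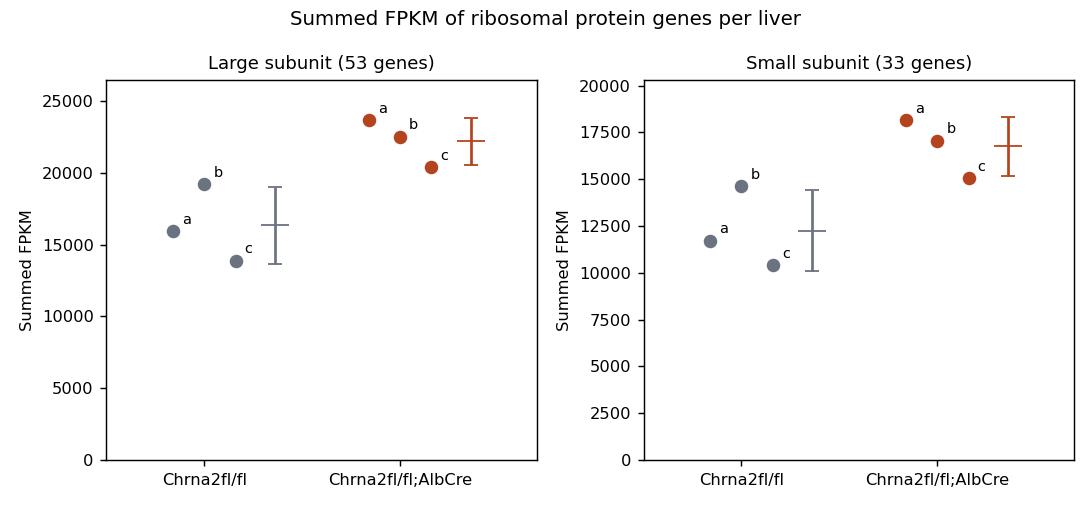
Summed FPKM of the large (left) and small (right) subunit genes in each liver, with control livers in grey and mutant livers in orange, letters naming the livers and bars giving mean ± SD (n = 3). The mutant sums of 20414 to 23644 (large) and 15055 to 18143 (small) all lie above the control sums, before any rescaling.

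Gene by gene, 83 of the 86 members had a mean of at least 0.5 FPKM and were tested, 50 of the large and 33 of the small subunit. None passed the threshold of 0.05 on the adjusted p from limma in either direction, as was true of all 13943 genes tested (percent called 0). The smallest adjusted p of a member was 0.24. At an unadjusted p under 0.05, 37 of 50 large subunit and 25 of 33 small subunit members were higher in mutants and 0 were lower, where 13.2% of all tested genes were higher and 3.02% lower. The groups were apart, with the lowest mutant above the highest control, for 36 of 50 large subunit and 22 of 33 small subunit members, against 18.7% of all tested genes, and 0 members lay below in that sense, against 4.34%. The median log2 fold change was 0.47 for the large and 0.49 for the small subunit, which is 0.28 and 0.30 above the median of all tested genes.

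These counts shifted when single livers were left out, which also leaves fewer livers for the test. The medians stayed above that of all genes. Without mutant a, 12 large and 8 small subunit members were higher in mutants at an unadjusted limma p under 0.05 (9.16% of all genes). The counts were 18 and 11 without mutant b (8%), 18 and 10 without control a (8.3%) and 17 and 12 without control c (7.45%). They were 29 and 24 without mutant c (9.57%) and 44 and 28 without control b (20.7%). Under median-ratio scaling, which moved the median of all genes to 0.00, 17 large and 11 small subunit members had a p under 0.05 (6.3% of all genes), and 20 and 13 did not overlap (9.41% of all genes).

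**Figure D2:**
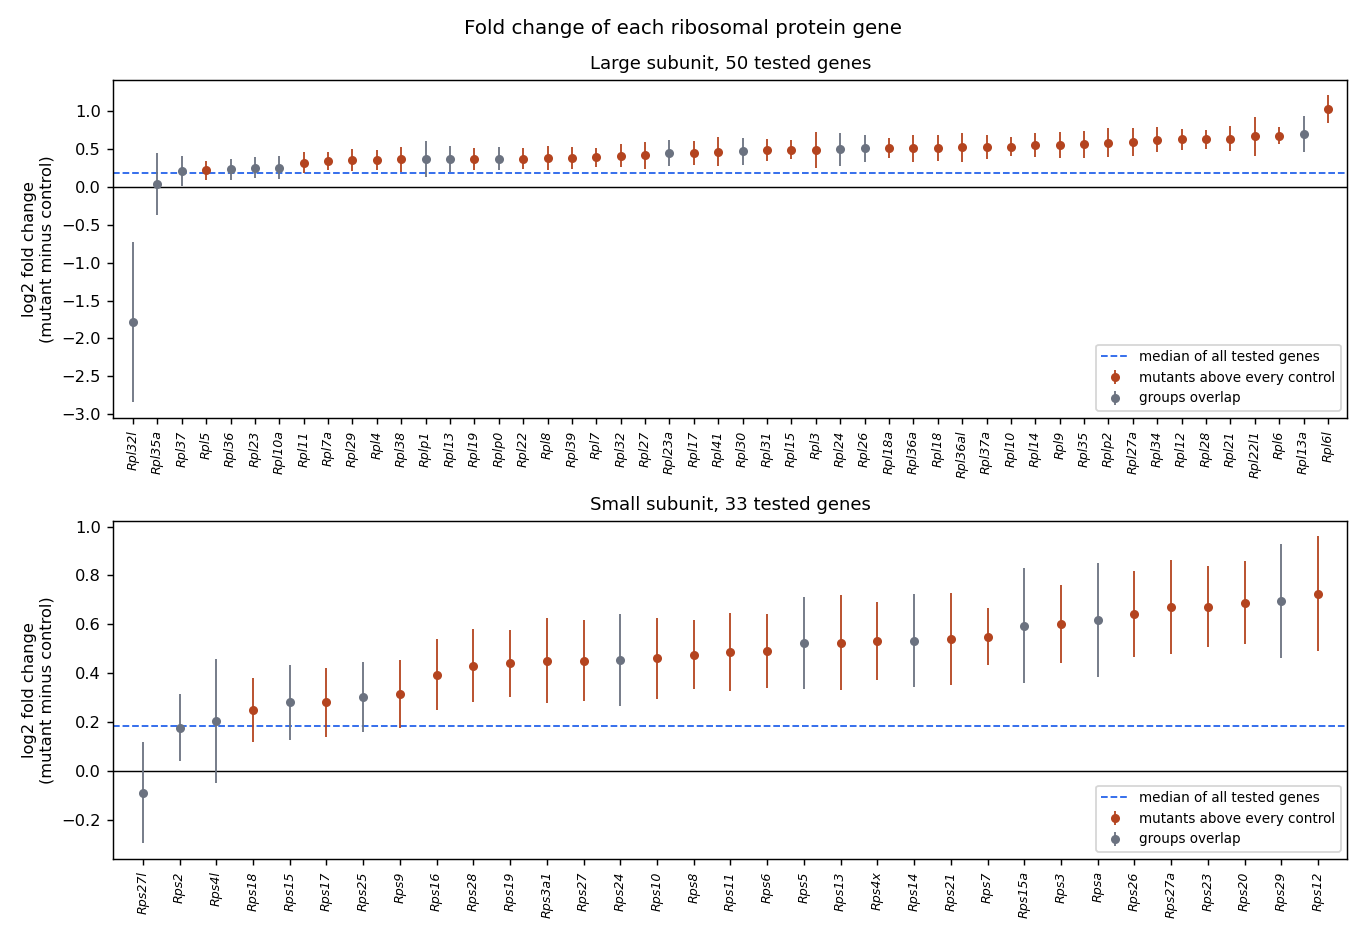
The log2 fold change (mutant minus control, points) of each tested ribosomal protein gene with its standard error (bars), ordered by size within each subunit, with the dashed line at the median of all tested genes, 0.19. Orange points are genes whose mutant livers all exceed every control liver (36 of 50 and 22 of 33), and only Rpl32l and Rps27l lie below 0.

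The members shared 1 pattern across the livers. Their log2 fold changes had an SD of 0.30 around a median of 0.47, against an SD of 0.59 over all tested genes, and 68 of 83 members (81.9%) fell between 0.3 and 0.7, where 24.5% of all tested genes did. Tested genes reach down to a mean of 0.5 FPKM, while members have a median of 381. These contrasts are therefore not between genes of like abundance. The log2 fold change was above 0 for 81 of the 83, against 70.3% of all tested genes. Control c was the lowest liver for 76 members, control b the highest control for 79, mutant a the highest liver for 67 and mutant c the lowest mutant for 67. Over all tested genes the shares were 37.4%, 50.1%, 23.2% and 36.3%, and the median deviation of all genes was likewise lowest in control c (-0.17) and highest in mutant a (0.12). Of the 25 members with overlapping groups, 19 had all mutant livers above controls a and c, so that only control b reached the mutant range. When each member was set against the median member in the same liver, 70 of 83 had an SD under 0.2 on the log2 scale over the 6 livers.

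**Figure D3:**
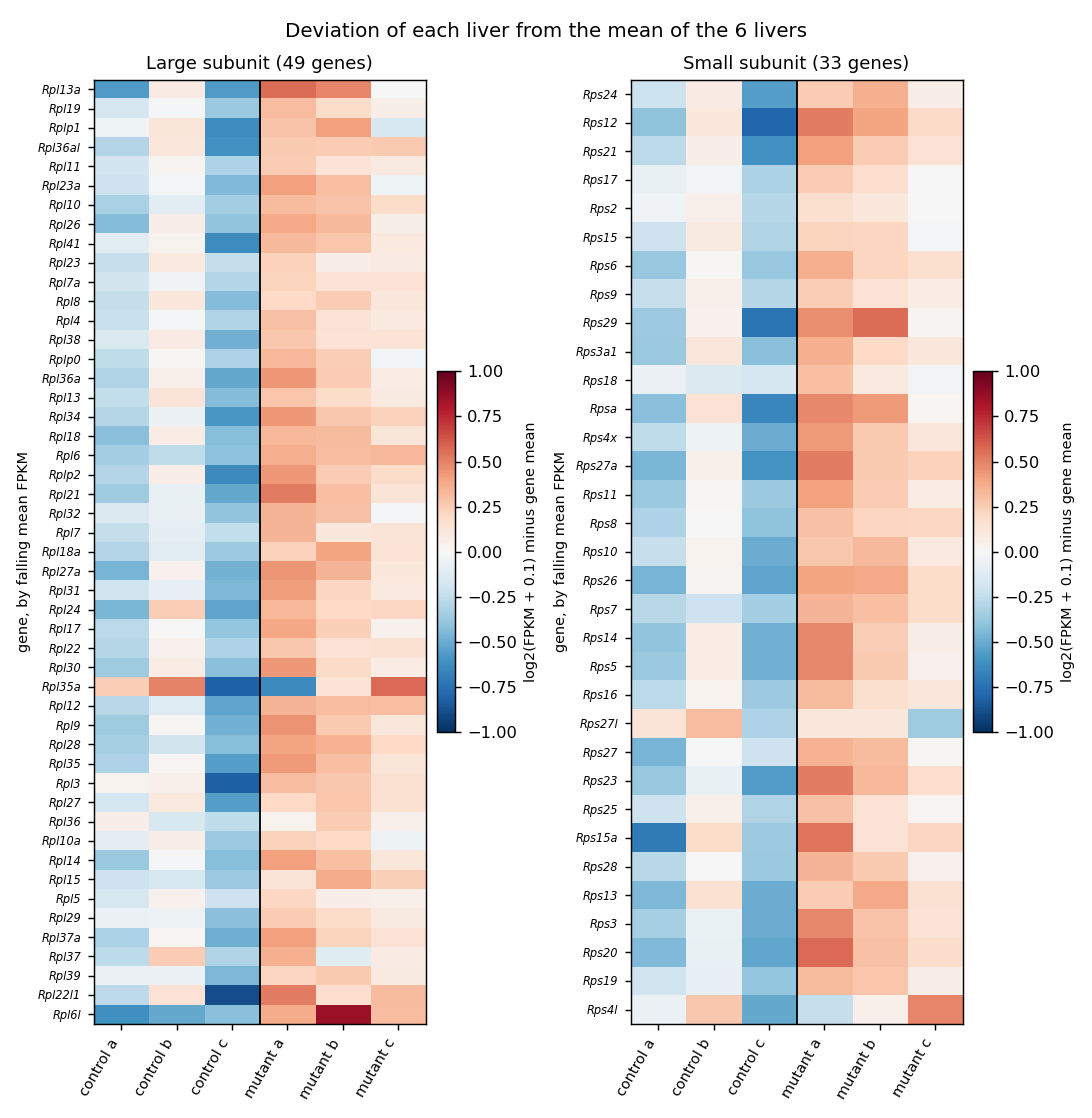
Deviation of log2(FPKM + 0.1) from the mean of each gene over the 6 livers (colour, red above and blue below), for members with a mean over 5 FPKM in order of falling mean, 49 of the large and 33 of the small subunit. Control c is the bluest column and mutant a the reddest, and the rows of Rpl35a, Rps27l and Rps4l break the pattern.

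Members differed far more in level than in change. Mean FPKM over the 6 livers, which is already per length, was over 100 for 79 of the 86 members, with a median of 381 among the 83 tested and a highest value of 1110. The highest was Rps24, a small subunit protein whose human counterpart is mutated in some cases of Diamond-Blackfan anaemia, at 937, 1153 and 743 FPKM in controls and 1298, 1393 and 1139 FPKM in mutants. Mutant c lay below control b, so the groups overlapped, and the log2 fold change was 0.45 ± 0.19 (SE). Rps12, another small subunit protein, had the largest difference of its subunit, with 775, 1102 and 589 FPKM in controls and 1455, 1342 and 1166 FPKM in mutants. Here the groups were apart, with a log2 fold change of 0.73 ± 0.24 (SE, adjusted p = 0.27). Rps21 came next by level in the small subunit, with means of 642 ± 148 and 919 ± 85.1 FPKM (SD, n = 3 each).

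In the large subunit the most abundant member was Rpl13a, which in human cells can also leave the ribosome to repress selected mRNAs. It stood at 585, 917 and 586 FPKM in controls and at 1276, 1216 and 863 FPKM in mutants. Control b exceeded mutant c, and the log2 fold change was 0.70 ± 0.24 (SE, adjusted p = 0.27). Rpl19 followed, at 644, 718 and 557 FPKM in controls and 895, 819 and 751 FPKM in mutants, without overlap. Its log2 fold change of 0.37 was below the median of the large subunit.

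The stalk is the flexible arm of the large subunit that recruits elongation factors, built of Rplp0 at its base and the acidic proteins Rplp1 and Rplp2. Rplp0 stood at 395, 477 and 381 FPKM in controls and 594, 562 and 463 FPKM in mutants, with mutant c just under control b. Rplp1 stood at 678, 760 and 454 FPKM in controls and 853, 930 and 628 FPKM in mutants, the widest spread within groups of the 3 genes. Rplp2 stood at 336, 431 and 265 FPKM in controls and 558, 492 and 468 FPKM in mutants, the only stalk gene whose groups were apart. The log2 fold changes were 0.37 ± 0.15, 0.36 ± 0.24 and 0.58 ± 0.19 (SE), with adjusted p of 0.30, 0.45 and 0.27. Rpl12, which sits beside the stalk base, was tighter, with 261, 288 and 219 FPKM in controls and 399, 390 and 388 FPKM in mutants. Its log2 fold change was 0.63 ± 0.14 (SE, adjusted p = 0.24).

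Rpl5 and Rpl11 enter the large subunit together with the smallest of its ribosomal RNAs, and both bind MDM2, the ubiquitin ligase of p53, when ribosome assembly is disturbed. Both were among the members that differed least. Rpl5 was at 157, 181 and 152 FPKM in controls and 203, 184 and 182 FPKM in mutants, so that control b nearly touched mutants b and c. Rpl11 was at 574, 668 and 529 FPKM in controls and 781, 721 and 699 FPKM in mutants. Their log2 fold changes were 0.22 ± 0.12 and 0.32 ± 0.14 (SE), with adjusted p of 0.41 and 0.31, and the first was close to the median of all tested genes.

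The large subunit members with the smallest p were Rpl6, its processed pseudogene copy Rpl6l, Rpl28, Rpl12 and Rpl10, with adjusted p of 0.24 to 0.26 (limma). Rpl6, a protein of the outer face of the subunit, was at 326, 347 and 312 FPKM in controls and 532, 514 and 522 FPKM in mutants, far apart for their spread, with a log2 fold change of 0.67 ± 0.11 (SE). Rpl6l was at 8.04, 8.61 and 9.20 FPKM in controls and 16, 22.5 and 15.3 FPKM in mutants, the highest positive log2 fold change of any member at 1.03 ± 0.18 (SE). Reads of Rpl6 and of this copy may not be told apart by the counting, so the value of Rpl6l is uncertain. Rpl28 was at 230, 255 and 215 FPKM in controls and 381, 368 and 333 FPKM in mutants. Rpl10, a protein added late in assembly near the site of peptide bond formation, was at 462, 534 and 455 FPKM in controls and 719, 706 and 658 FPKM in mutants. For all 5 genes the groups were apart.

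Among small subunit proteins the smallest p belonged to Rps7, Rps23, Rps20, Rps3 and Rps26, with adjusted p of 0.24 to 0.26 (limma) and groups apart in each. Rps7 was at 304, 321 and 292 FPKM in controls and 468, 454 and 420 FPKM in mutants, with a log2 fold change of 0.55 ± 0.12 (SE). Rps23, which lines the decoding centre, was at 203, 250 and 179 FPKM in controls and 375, 332 and 295 FPKM in mutants. Rps3, at the mRNA entry channel, was at 134, 161 and 120 FPKM in controls and 236, 205 and 185 FPKM in mutants. Rps20, a protein of the head of the subunit, and Rps26, at the mRNA exit, had mean levels of 131 ± 22.7 and 299.9 ± 66.5 FPKM in controls and 212 ± 30.6 and 462 ± 36.8 FPKM in mutants (SD, n = 3 each). Rps6, the substrate of the S6 kinases downstream of mTORC1, was at 484, 634 and 483 FPKM in controls and 805, 729 and 701 FPKM in mutants, apart and near the median of its subunit at 0.49 ± 0.15 (SE, adjusted p = 0.26). Rpsa, a ribosomal protein first described as a laminin receptor, was at 326, 482 and 276 FPKM in controls and 608, 584 and 442 FPKM in mutants, where control b exceeded mutant c.

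Some members have a paralogue that can take the place of the canonical protein. Rps27l, which p53 induces in human and mouse cells, was the only protein-coding member of either subunit with a negative log2 fold change, -0.09 ± 0.21 (SE, adjusted p = 0.83). It was at 323, 367 and 239 FPKM in controls and 319, 319 and 231 FPKM in mutants, so the groups overlapped almost fully. Its partner Rps27 was at 209, 287 and 249 FPKM in controls and 367, 358 and 290 FPKM in mutants, with a log2 fold change of 0.45 ± 0.16 (SE). The log2 ratio of Rps27l to Rps27 was accordingly 0.63, 0.36 and -0.06 in controls and -0.20, -0.17 and -0.32 in mutants. The difference of -0.54 separated the groups completely and reached the smallest p that 3 against 3 livers allow, 0.1 (exact permutation test, two-sided), with a Benjamini-Hochberg value of 0.4 over the 4 pairs tested.

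The other 3 tested pairs showed no complete separation. Rpl22l1, whose expression the RPL22 protein represses in mouse cells, was at 43.0, 56.9 and 27.8 FPKM in controls and 73.5, 58.0 and 64.0 FPKM in mutants, and Rpl22 at 266, 335 and 262 FPKM and 391, 359 and 360 FPKM. Their log2 ratio differed by 0.30, with an exact permutation p of 0.2 and overlapping groups. Rpl36al, an autosomal copy of the X-linked Rpl36a, was at 548, 727 and 441 FPKM in controls and 805, 802 and 805 FPKM in mutants, and exceeded Rpl36a in every liver, by 1.36 to 1.53 times in controls and 1.29 to 1.66 times in mutants. The log2 ratio of this pair differed by 0.012 between genotypes, with SDs of 0.084 and 0.18 (n = 3 each). Rps4l, annotated as a transcribed processed pseudogene, was at 17.2 to 29.7 FPKM in controls and 20.9 to 34.5 FPKM in mutants, against 311 to 424 and 475 to 588 FPKM for Rps4x. The other paralogues were near or at 0: Rpl3l, known from striated muscle, reached at most 0.17 FPKM, Rpl39l, known from male germ cells, was above 0 in control a alone at 0.10 FPKM, and Rpl10l, also a germ cell gene, was listed at 0 in all 6 livers. Their canonical genes were well expressed, with mean levels of 263 FPKM for Rpl3, 103 FPKM for Rpl39 and 589 FPKM for Rpl10. Rpl32l, a further processed pseudogene, had a mean of 0.50 FPKM and was listed at 0 in mutants a and c.

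**Figure D4:**
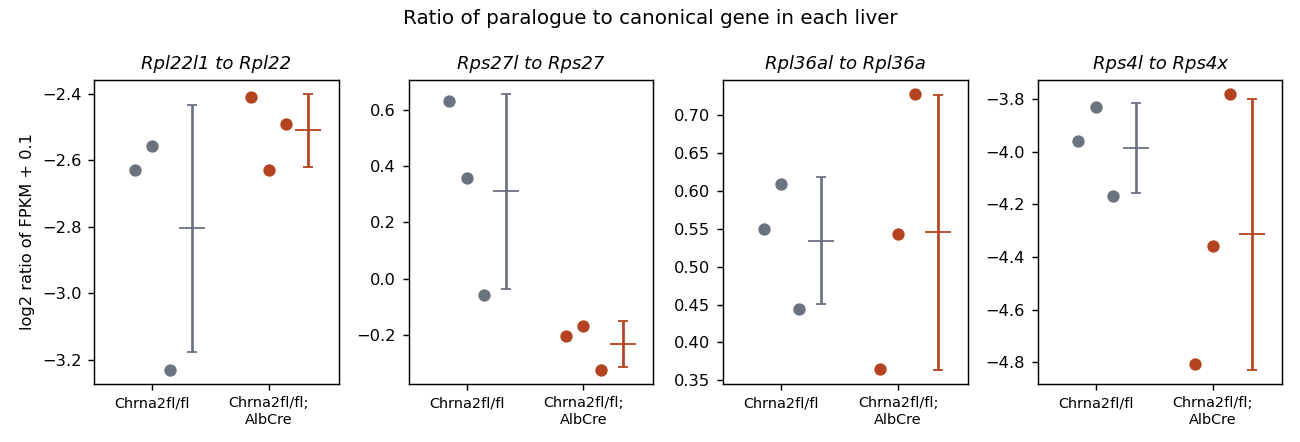
The log2 ratio of paralogue to canonical gene, from FPKM + 0.1, for the 4 tested pairs in every liver (points) with mean ± SD (n = 3), controls in grey and mutants in orange, each panel with its own scale. Among these 4 pairs, only the ratio of Rps27l to Rps27 separates the groups, from -0.06 to 0.63 in controls against -0.32 to -0.17 in mutants.

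Ribosomal protein genes have many pseudogene copies, and near-identical sequences can share reads. The table held 317 rows named as pseudogenes of members, for 62 of the 86, and these rows together came to 2.73 to 3.63% of the members' own FPKM in controls and 3.33 to 4.84% in mutants. Members with such rows and members without them had like values. The median log2 fold change was 0.47 over 62 and 0.50 over 21 tested genes, and 43 and 15 had groups apart. The split is by name, so members without such rows include Rpl6 and its copy Rpl6l, and Rpl32l. It therefore cannot show whether shared reads matter. Rpl35a, a large subunit gene, showed how far single values can go astray, and was chosen after its values were seen. Its own row read 364, 433 and 175 FPKM in controls and 197, 337 and 453 FPKM in mutants, with overlapping groups and the widest spread of any protein-coding member against the median member. Of its 6 pseudogene rows, 4 held identical values, 7.45, 4.65 and 53.1 FPKM in controls and 144, 76.2 and 8.72 FPKM in mutants, high in the livers in which Rpl35a was low. Summed over the gene and its pseudogenes the values were 393, 453 and 389 FPKM in controls and 774, 642 and 488 FPKM in mutants, with the groups apart and a log2 fold change of 0.60 (adjusted p = 0.26, limma).

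**Figure D5:**
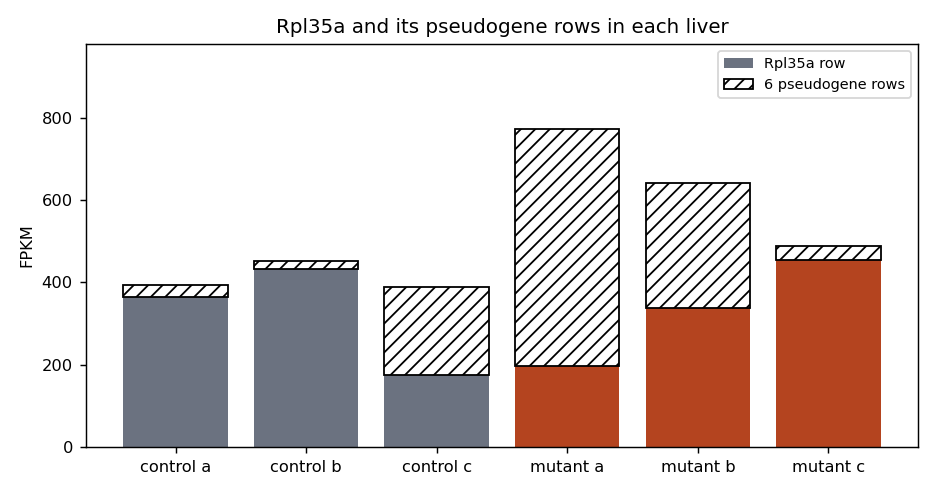
FPKM of the Rpl35a row (filled bars, controls in grey and mutants in orange) and of its 6 pseudogene rows (hatched, stacked on top) in each liver. The filled part overlaps between genotypes, while the full height is 389 to 453 in controls and 488 to 774 in mutants.

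Other genes of like length, abundance or start sequence are given for comparison, and the part of these features in the members' values was not tested. Members had a median main transcript of 882 nt. Other genes with a transcript of at most 600 nt had a median log2 fold change of 0.15 (728 genes), against 0.44 for the 20 members of that length. From 600 to 1000 nt the medians were 0.20 for 992 other genes and 0.48 for 34 members. The 817 other genes over 100 FPKM had a median of -0.05, and 14.2% of them had groups apart in the direction of the members. Among tested members with a promoter, the median log2 fold change was 0.49 for 49 with a pyrimidine tract and 0.44 for 12 without one, while among other tested genes it was 0.18 for 3324 with a tract and 0.19 for 6795 without one.

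Of the ribosomal proteins with other names, Rack1, a scaffold on the small subunit head, was at 162, 192 and 147 FPKM in controls and 258, 244 and 203 FPKM in mutants, with a log2 fold change of 0.50 ± 0.15 (SE, adjusted p = 0.26). Fau, a ubiquitin-like fusion that releases a small subunit protein, was at 274, 375 and 255 FPKM in controls and 321, 323 and 275 FPKM in mutants and overlapped, with a log2 fold change of 0.04 ± 0.17 (SE) that turned negative under median-ratio scaling and quantile normalization.

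None of the other genes of translation passed the adjusted threshold. A list of elongation factors with the related genes Tpt1, Eef2k and Eef1e1 had a median log2 fold change of 0.30 over 10 tested genes. Of these, 5 (50%) had groups apart, Tpt1 among them. Initiation factors had a median of 0.25 over 36 genes, 13 of them (36.1%) apart. Over all tested genes 18.7% were apart. The smallest p among elongation factors belonged to subunits of the complex that reloads eEF1A with GTP: Eef1b2 was at 291, 416 and 280 FPKM in controls and 623, 525 and 489 FPKM in mutants, and Eef1g at 98.6, 162 and 103 FPKM in controls and 208, 196 and 180 FPKM in mutants. Both had groups apart and adjusted p of 0.26. Eef1a1, the most abundant gene of the list, and Eef2 had overlapping groups. Their log2 fold changes were 0.083 ± 0.135 and -0.067 ± 0.145 (SE). Of the initiation factors, Eif3b had a log2 fold change of 0.53 ± 0.15 and Eif4a1, the helicase that unwinds mRNA, 0.40 ± 0.13 (SE).

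Factors that build ribosomes had smaller median fold changes than the ribosomal proteins. Ribosome biogenesis factors had a median log2 fold change of 0.27 over 50 genes, of which 10 were apart (20%, near the 18.7% of all genes). Nop56, a core protein of the box C/D particles that methylate ribosomal RNA, was at 20.7, 24.0 and 16.4 FPKM in controls and 27.2, 36.1 and 31.6 FPKM in mutants, and Ebna1bp2, a large subunit assembly factor, had a log2 fold change of 0.57 ± 0.17 (SE). Chaperones and importers of ribosomal proteins had a median of 0.33 over 12 genes, 4 of them apart, led by Nap1l1 at 0.43 ± 0.14 and Heatr3 at 0.47 ± 0.15 (SE). RNA polymerase I and its factors, which make ribosomal RNA, had a median of 0.13 over 17 genes with 2 apart. Polr1e, whose groups overlapped, stood at 0.61 ± 0.24 (SE). The shared polymerase subunit Polr2h, whose groups were apart, stood at 0.44 ± 0.18 (SE). Genes of mTORC1 and MYC control had a median of 0.09 over 22 genes with 2 apart, and the smallest p among them, of Rheb and Mxd1, gave adjusted values of 0.39 and 0.45. The medians of these last 2 lists turned negative under median-ratio scaling and quantile normalization.

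Mitochondrial ribosomal proteins, which form a separate ribosome for the mitochondrial genome, lay at the level of all genes, and the difference from the cytosolic ones was not tested. Their median log2 fold change was 0.20 over 78 genes, 0.01 above that of all tested genes, and 15 of 78 (19.2%) had groups apart, near the background of 18.7%. The lowest p belonged to Mrpl1, at 9.21, 11 and 9.22 FPKM in controls and 13.6, 13.4 and 12.6 FPKM in mutants, and to Mrps28, with a log2 fold change of 0.65 ± 0.21 (SE, adjusted p = 0.27).

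Markers of several other liver cell types also had higher levels in mutants, none past the adjusted threshold. Over all tested genes, 70.3% were above 0 and 18.7% had groups apart in that direction. The share apart was 50% for myofibroblast and for macrophage markers. It was below that of all genes for Kupffer cell (16.7%), sinusoidal endothelial (12.5%), stellate (12.5%) and cholangiocyte (0%) markers. Myofibroblast markers had a median log2 fold change of 1.61 (8 of 8 tested genes above 0, 4 apart), with summed levels of 33.5 to 198 FPKM in controls and 129 to 291 FPKM in mutants. Markers of monocyte-derived macrophages had a median of 1.05 (8 of 8 above 0, 4 apart) and sums of 112 to 278 FPKM against 294 to 567 FPKM. Spp1, which also stands in the cholangiocyte list, made up 73.2 to 198 FPKM of these sums in controls and 162 to 423 FPKM in mutants, and without it the macrophage sums overlapped, at 38.6 to 101 against 90.1 to 143 FPKM. Medians were 0.67 for Kupffer cell markers (6 of 6 above 0, 1 apart, sums of 117 to 199 against 181 to 368 FPKM), 0.60 for sinusoidal endothelial cells (8 of 8, 1 apart, 42.7 to 68.1 against 64.7 to 106 FPKM), 0.76 for stellate cells (8 of 8, 1 apart, 58.9 to 188 against 124 to 230 FPKM) and 0.79 for cholangiocytes (5 of 5 tested, 0 apart, 79.6 to 215 against 188 to 440 FPKM). Without Spp1 the cholangiocyte sums were 6.38 to 17.2 against 16.3 to 25.3 FPKM. Hepatocyte markers had a median of -0.08, with 2 of 9 above 0. Their sums were 62160 to 84560 FPKM in controls and 56780 to 67710 FPKM in mutants, so that the tissue label held in every liver. Apoa2 of that list was below every control in all mutants, at 11916, 12197 and 13639 FPKM against 9083, 8057 and 7820 FPKM. Erythroid markers summed to 614 to 729 FPKM in controls and 637 to 1934 FPKM in mutants, although Alas2 of that list was below every control in all mutants, at 39.7, 59.8 and 66 FPKM against 32.4, 26.9 and 37.6 FPKM, and neutrophil markers to 14.6 to 103 and 16.4 to 48.2 FPKM. T and NK cell markers (1.47 to 3.89 FPKM in controls and 1.71 to 2.47 FPKM in mutants) and B and plasma cell markers (2.14 to 4.25 and 3.96 to 9.41 FPKM) were low throughout. The single tested T and NK cell marker, Cd4, was below every control in all mutants, at 1.73, 0.84 and 1.3 FPKM against 0.37, 0.42 and 0.65 FPKM. No marker was at 0 in all livers. By liver, the sum of myofibroblast markers was highest in control b among controls (198 FPKM, against 81.1 and 33.5 FPKM). Among mutants it was lowest in mutant c (129 FPKM, against 261 and 291 FPKM). Control b was likewise the highest control and mutant c the lowest mutant in the ribosomal protein sums. The same held for Kupffer cell, sinusoidal endothelial, stellate, and B and plasma cell sums. The highest myofibroblast sum was in mutant b, and the highest ribosomal protein sums in mutant a. Macrophage and cholangiocyte sums, both with Spp1, were highest in control a among controls and in mutant c among mutants. Without Spp1 the macrophage sums were highest in control b among controls and still in mutant c among mutants. The cholangiocyte sums without it were highest in control a among controls but lowest in mutant c among mutants. The part of these cells in the ribosomal protein values was not tested.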

How the data were processed

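Livers of 3 Chrna2fl/fl and 3 Chrna2fl/fl;AlbCre mice given HFD plus CCl4 were profiled by poly(A) RNA-seq. The authors aligned reads to GRCm38 with STAR 2.7.8a and deposited gene FPKM from RSEM 1.3.3, rounded to 2 decimals, after trimming by cutadapt 2.3 and quality checks by FastQC 0.11.8 and MultiQC 1.7. RSEM shares ambiguous reads among similar sequences, so values of members with near-identical copies are uncertain. Positions and lengths were matched by identifier to GRCm38 gene models for 55227 of the 55491 rows.

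Genes averaging 0.5 FPKM or more (13943) were fitted as log2(FPKM + 0.1) with limma 3.58.1 in R 4.3.3 (lmFit, eBayes with a trend), mutant minus control, with Benjamini-Hochberg adjustment over all of them and a threshold of 0.05. The script was tested on simulated data. Fold changes on this scale understate those of low genes. Paralogue ratios were compared by an exact permutation test. Depth was read from FPKM steps with a tolerance of 0.15 fragments. Control and mutant letters did not pair the livers. The p-values measure the spread between these 6 livers.

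Members and gene lists were chosen with earlier results of these data known. The text names the stalk genes, Rpl5, Rpl11, Rps6, Rpsa, paralogue pairs, Fau and Rack1. It also names, per subunit, the 3 members with the highest mean, the 5 with the smallest p and both extremes of fold change, then members at 0 throughout, members called, and up to 2 genes of each other list by p. For 1 further gene under this rule, values are not reported here. Alternatives were other pseudocounts, filters, scalings and limma settings, no division by length, pseudogene rows summed with their gene, each liver left out and the replicate letter as a block. Counts of members with groups apart under the alternatives, medians of protein-coding members, and marker sums without Spp1 were added after seeing the data. So were the order of summed FPKM under median-ratio scaling and the values of Eef1a1 and Eef2.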

Additional observations from a re-analysis of the deposited data

How the results depend on the processing

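No setting called a member at an adjusted p under 0.05, and in every setting the median log2 fold change of both subunits stayed above 0 and above that of all tested genes. The smallest adjusted p of a member (limma) came to 0.057 with array weights and 0.057 without control b, against 0.24 in the main fit. Median-ratio scaling lowered the medians to 0.28 and 0.30, the members at an unadjusted p under 0.05 to 17 (large) and 11 (small), the members with groups apart to 20 and 13, and the ratios of summed FPKM to 1.20 and 1.21. The small subunit sums of the groups then overlapped at control b and mutant c. Without the limma trend, 23 large subunit members had a p under 0.05 (12.1% of all genes higher), and with the replicate letter as a block 32 large and 23 small ones did (12.2%). Same-letter livers did not deviate together (correlations of -0.019, 0.055 and 0.016). Leaving out 1 liver gave 12 to 44 large and 8 to 28 small subunit members at a p under 0.05, highest without control b, when 20.7% of all genes were higher at that p against 7.45 to 9.57% without each of the other livers. The ratios of summed FPKM were then 1.26 to 1.49 and 1.27 to 1.52, and 0 to 1 genes of the translation lists were called. Values that changed sign were Fau (-0.15 by median-ratio scaling, -0.015 by quantile normalization, -0.07 to 0.21 with 1 liver left out), Rps27l (-0.27 to 0.064), Rps4l (-0.004 to 0.39) and the Rpl36al to Rpl36a ratio (-0.08 to 0.10), the last 3 with 1 liver left out. Medians changed sign for RNA polymerase I factors (-0.048 by median-ratio scaling, -0.005 by quantile normalization) and for mTORC1 and MYC control (-0.097 and -0.10). The cause was not tested.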
